A study of Homo sapiens with 5 samples.

Results

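The 9 genes described here, NT5E, F3, CCN1, CCN2, WWC1, PTPN14, THBS1, CAV1 and AMOTL2, are known transcriptional targets of YAP and TEAD. They were taken by their symbols from the 12474 genes of the deposited single-cell matrix, and all 9 were present and passed the filter on low counts. The cells were MDA-MB-468, a human triple-negative breast cancer line with an amplified EGFR gene, which had been given lentiviral lineage barcodes and selected with puromycin. Untreated cells of day 0 (D0) were held in 2 libraries, replicates 1 and 2, and cells kept in 250 nM afatinib for 3, 6 or 9 days (D3, D6 and D9) in 1 library each. Afatinib binds irreversibly to EGFR and related ERBB kinases and blocks them. The barcode vector and the selection were common to every group, treated cells had been frozen and thawed before capture, which the methods do not state as plainly of the untreated ones, and the D0 cells came from 2 captures on separate flow cells. No label states that the untreated replicates were separate cultures, so every p-value below measures only the spread between these libraries. Between the untreated pair that spread may be technical. In the test of all treated against untreated libraries the 3 days count as replicates, so differences between days enter its spread too.

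YAP and its paralog TAZ (gene WWTR1) are coactivators that cannot bind DNA themselves and act through the TEAD factors, which recognise the sequence GGAATG. The Hippo kinases MST and LATS phosphorylate YAP and keep it out of the nucleus, whereas growth factor signalling, stiff matrix and spreading of the cell favour its nuclear form. Its targets fall into several kinds: secreted matricellular proteins (CCN1, CCN2, THBS1), proteins of the cell surface (NT5E, F3, CAV1), and proteins that restrain YAP in turn and so close a negative feedback loop (WWC1, PTPN14, AMOTL2). In breast cancer cells, CCN1 and CCN2 are the most widely used readouts of the pathway.

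Library totals lay between 14517579 and 28148379 UMIs (unique molecular identifiers, 1 per captured RNA molecule), over 478 to 1139 cells per library. Levels are given as CPM, that is, UMIs of a gene per 1000000 UMIs of its library, with library totals scaled by TMM factors. Mitochondrially encoded RNA took 7.25% and 7.80% of counts at D0 (replicates 1 and 2), 17.2% at D3, 16.0% at D6 and 8.82% at D9. Cells with under 10% of it numbered 379 of 478 and 860 of 1063 at D0 (replicates 1 and 2). At D3 they were 85 of 479, at D6 188 of 942 and at D9 857 of 1139. Values from these cells therefore rest on a minority of the D3 and D6 libraries. Among these cells, 6 of the 9 genes passed the test described below, beside 17.7% of all genes. Of 8 epithelial genes that mark the line all were tested and 1, KRT7, fell, beside 10.1% of all genes. Their summed level was 5617 to 6885 CPM in treated libraries, against 9065 and 8950 CPM in untreated ones. KRT8, KRT18, KRT19 and EGFR were also below both untreated libraries in every treated one but did not pass, while CDH1, EPCAM and KRT5 overlapped. Of 7 leukocyte markers 0 were in the matrix. Of 8 fibroblast markers 2 were, with a summed level of 4.08 to 8.24 CPM in treated libraries, against 9.23 and 9.30 CPM in untreated ones. Of these FAP fell (log2 fold change -2.66, adjusted p = 0.00956, edgeR), while COL1A1 had 0.79 and did not pass (adjusted p = 0.18). Of 6 endothelial markers 2 were, with a summed 5.02 to 7.23 CPM in treated libraries, against 3.93 and 4.32 CPM in untreated ones, and the 1 that could be tested did not pass. The part of these markers in the results below was not tested. Only 1 cell barcode occurred in more than 1 library.

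The DNA in front of these genes is shown first because the data concern genes grouped by 1 transcription factor. RefSeq windows of 300 bases (GRCh38.p14), running from 250 bases before the gene start to 50 after it, were at hand for 8 of the 9 genes, in 11 windows, since CAV1 and AMOTL2 have several starts. The TEAD sequence GGAATG, or its reverse complement CATTCC, was present in 4 of the 11 windows, and 14.0% of all 35116 windows of the table held it at least 1 time. The 4 windows belong to 4 genes, CCN2, THBS1, PTPN14 and AMOTL2, the last with a match in 1 of its 2 windows. CCN2 held it 3 times, and only 45 of the 35116 windows held it at least 3 times. In the sequences below, 5′ to 3′ along the gene, capitals mark GGAATG or CATTCC, and for F3 the AP-1 sequence TGANTCA, which reads the same on both strands; the motifs did not overlap.
CCN2, chr6:131951323-131951622, minus strand: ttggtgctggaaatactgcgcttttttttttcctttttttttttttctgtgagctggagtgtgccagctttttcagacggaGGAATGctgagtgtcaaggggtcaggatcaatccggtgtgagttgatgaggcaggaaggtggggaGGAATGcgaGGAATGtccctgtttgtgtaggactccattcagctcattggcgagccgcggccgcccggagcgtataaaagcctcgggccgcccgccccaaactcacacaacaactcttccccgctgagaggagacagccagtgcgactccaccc
THBS1, chr15:39580829-39581128, plus strand: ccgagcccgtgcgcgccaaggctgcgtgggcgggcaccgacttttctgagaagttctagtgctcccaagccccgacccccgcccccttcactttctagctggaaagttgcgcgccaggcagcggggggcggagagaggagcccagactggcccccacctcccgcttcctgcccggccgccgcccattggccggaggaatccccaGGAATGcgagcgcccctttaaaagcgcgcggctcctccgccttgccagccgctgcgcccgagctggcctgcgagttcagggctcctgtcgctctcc
PTPN14, chr1:214551553-214551852, minus strand: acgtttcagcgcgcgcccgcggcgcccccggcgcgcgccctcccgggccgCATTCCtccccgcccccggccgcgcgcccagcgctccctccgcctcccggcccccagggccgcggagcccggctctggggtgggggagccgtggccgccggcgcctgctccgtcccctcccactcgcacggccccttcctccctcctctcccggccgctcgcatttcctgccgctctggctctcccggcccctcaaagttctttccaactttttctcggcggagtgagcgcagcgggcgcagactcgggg
AMOTL2, chr3:134374398-134374697, minus strand: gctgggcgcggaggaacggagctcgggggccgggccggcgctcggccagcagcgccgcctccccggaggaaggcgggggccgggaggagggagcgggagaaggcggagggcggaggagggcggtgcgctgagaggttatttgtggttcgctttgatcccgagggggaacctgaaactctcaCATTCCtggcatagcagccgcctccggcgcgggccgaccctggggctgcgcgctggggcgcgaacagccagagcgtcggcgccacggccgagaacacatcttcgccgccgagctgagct
F3, chr1:94541710-94542009, minus strand: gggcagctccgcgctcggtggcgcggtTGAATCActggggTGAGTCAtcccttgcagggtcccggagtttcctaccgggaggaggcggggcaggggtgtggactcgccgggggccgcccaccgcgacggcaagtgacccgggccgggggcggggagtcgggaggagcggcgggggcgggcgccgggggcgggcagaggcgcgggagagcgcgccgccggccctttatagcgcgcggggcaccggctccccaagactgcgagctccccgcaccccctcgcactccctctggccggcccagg
The 3 matches of CCN2 began 169, 104 and 95 bases before the gene start, the last pair only 3 bases apart. THBS1 had its match 46 bases, PTPN14 200 bases and AMOTL2 69 bases before the start. F3 had no GGAATG in its window but held TGANTCA, the sequence bound by FOS and JUN dimers, 2 times, at 223 and 210 bases before the start, and 0.515% of all windows held it at least 2 times. NT5E, WWC1 and the CAV1 windows held neither. A match is a run of letters and not a measured binding site, and enhancers, where much TEAD binding lies, are outside these windows.

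In afatinib, most of the surface and matricellular targets were lower and a pair of the feedback genes was higher. Over the 3 treated against the 2 untreated libraries, 5 of the 9 genes fell (CAV1, NT5E, THBS1, F3, CCN2), 2 rose (WWC1, PTPN14) and CCN1 and AMOTL2 did not pass the test (edgeR quasi-likelihood test, Benjamini-Hochberg adjusted p under 0.05). Among all 12145 genes tested, 10.1% fell and 13.1% rose. That split leaned on the scaling: 1229 genes fell and 1590 rose, against 1490 and 1280 with mitochondrial and ribosomal protein genes left out of the normalization, where WWC1 (adjusted p = 0.0514) and PTPN14 (adjusted p = 0.0694) no longer passed. The median log2 fold change of the 9 genes was -1.01, beside 0.05 over all genes tested. In 5 of the 9 genes every treated library lay below both untreated ones and in 2 every treated library lay above them, a pattern seen in 26% and 31.7% of all genes. Of the 4 genes with a TEAD sequence in a promoter window 2 fell, 1 rose and 1 did not pass, and of the 4 with a window but none 3 fell and 1 rose.

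**Figure D1:**
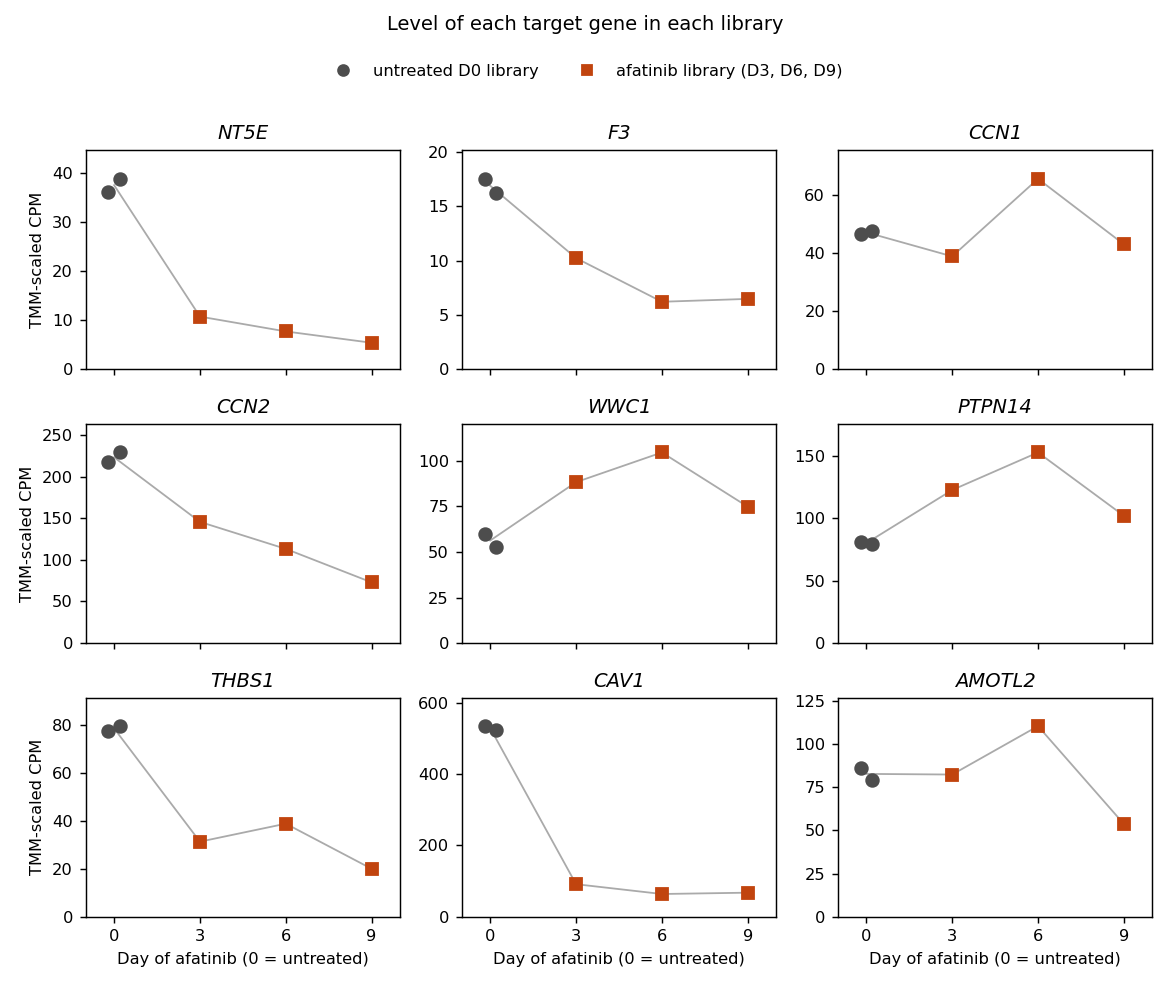
TMM-scaled CPM of each of the 9 genes (y axes, each from 0) by day of afatinib (x axes); circles are the 2 untreated D0 libraries, squares the single libraries of D3, D6 and D9, and lines join the D0 mean to them. CAV1 fell to between 63.9 and 91.4 CPM in treated libraries, against 524 and 535 CPM in untreated ones, whereas CCN1 and AMOTL2 overlapped between the groups and had their highest value at D6.

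CAV1 encodes caveolin-1, the main coat protein of caveolae, the small flask-shaped pits of the plasma membrane (chr7:116524994-116561179, plus strand, GRCh38). Its level was 535 and 524 CPM at D0 (replicates 1 and 2), 91.4 CPM at D3, 63.9 CPM at D6 and 67.6 CPM at D9. Most of the drop was present at D3, and no treated library came near an untreated one. The treated mean was 74.3 ± 14.9 CPM (SD, n = 3), against an untreated mean of 529 CPM. This was a log2 fold change of -2.83 ± 0.20 (SE; adjusted p = 0.0012, edgeR), the 9th smallest p-value of all genes. It passed in all 13 alternative settings listed with the processing, with fold changes of -3.01 to -2.11.

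NT5E encodes CD73, the surface enzyme that turns AMP into adenosine outside the cell (chr6:85449584-85495791, plus strand). It stood at 36.2 and 38.8 CPM at D0, 10.8 CPM at D3, 7.74 CPM at D6 and 5.43 CPM at D9. Each later treated library was lower than the one before, and all lay under the untreated pair. It changed by a log2 fold of -2.25 ± 0.25 (SE; adjusted p = 0.00229, edgeR; treated against untreated, n = 3 and 2), and all 13 settings kept the call. In cells with under 10% mitochondrial counts it was -1.85 ± 0.39.

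F3 encodes tissue factor, the receptor of factor VII that starts blood clotting (chr1:94529173-94541759, minus strand). It was among the least counted of the 9 genes, with 99 UMIs at D6 and 159 at both D3 and D9. Its level was 17.5 and 16.3 CPM at D0, 10.2 CPM at D3, 6.23 CPM at D6 and 6.49 CPM at D9. The groups did not overlap, and D6 and D9 lay close together. The log2 fold change was -1.15 ± 0.23 (SE; adjusted p = 0.0133, edgeR). The call was lost without untreated replicate 1 (adjusted p = 0.119) or replicate 2 (adjusted p = 0.1002) and with cells thinned to 5000 UMIs (adjusted p = 0.0663), while the direction held.

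The secreted matricellular targets did not move together. CCN2, the connective tissue growth factor (chr6:131948176-131951372, minus strand), whose promoter carries the 3 GGAATG sequences shown above, was measured at 217 and 229 CPM at D0, 146 CPM at D3, 113 CPM at D6 and 72.9 CPM at D9. It was lower in every later library. The log2 fold change over all treated libraries was -1.01 ± 0.27 (SE; adjusted p = 0.0321, edgeR). Without untreated replicate 1 or 2 the adjusted p was 0.162 or 0.197, without D6 it was 0.0897 and with thinned cells 0.0741, with fold changes of -1.05, -0.98, -1.05 and -0.95.

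THBS1 encodes thrombospondin-1, a matrix glycoprotein that releases TGF-beta from its latent form (chr15:39581079-39599466, plus strand). Its level was 77.5 and 79.5 CPM at D0, 31.3 CPM at D3, 38.8 CPM at D6 and 20.002 CPM at D9. All treated libraries were low, D9 most of all. Its log2 fold change was -1.39 ± 0.25 (SE; adjusted p = 0.00958, edgeR), and 11 of 13 settings kept the call; without untreated replicate 1 or 2 the adjusted p was 0.0653 or 0.0758.

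CCN1, or CYR61, is the closest relative of CCN2 among these genes and binds integrins as CCN2 does (chr1:85580761-85584589, plus strand). In contrast to CCN2, it was at 46.6 and 47.7 CPM at D0, 38.9 CPM at D3, 65.6 CPM at D6 and 43.1 CPM at D9. D6 was high, D3 and D9 lay just under the untreated pair, and the groups overlapped. Its log2 fold change was 0.06 ± 0.23 (SE; adjusted p = 0.868, edgeR), and its sign turned to -0.22 without D6 and to -0.01 with mitochondrial and ribosomal protein genes left out of the normalization.

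WWC1 and PTPN14, proteins that restrain YAP, were both higher in every treated library. WWC1 encodes KIBRA, a scaffold that activates the LATS kinases (chr5:168291645-168472303, plus strand). It was at 59.8 and 52.7 CPM at D0, 88.3 CPM at D3, 105 CPM at D6 and 74.8 CPM at D9. The treated libraries lay above both untreated ones, with the peak at D6. Its log2 fold change was 0.66 ± 0.18 (SE; adjusted p = 0.0358, edgeR).

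PTPN14 encodes a tyrosine phosphatase that binds YAP and holds it in the cytoplasm (chr1:214348700-214552449, minus strand). Its level was 81.1 and 79.0 CPM at D0, 123 CPM at D3, 153 CPM at D6 and 102 CPM at D9, the same order of days as in WWC1. The log2 fold change was 0.65 ± 0.20 (SE; adjusted p = 0.0487, edgeR). Only 5 of the 13 settings kept the call of WWC1, and 5 that of PTPN14, each with the direction unchanged. Leaving out either untreated library or D3 or D6 ended it for both genes: the adjusted p was 0.189, 0.304, 0.0796 and 0.104 for WWC1, and 0.267, 0.306, 0.0961 and 0.134 for PTPN14, without untreated replicate 1, untreated replicate 2, D3 and D6. PTPN14 has the longest transcript of the 9 genes (13360 bases), and with each library's trend of counts with transcript length taken out its log2 fold change was 0.27 ± 0.15 (adjusted p = 0.219), that of WWC1 0.44 ± 0.14 (adjusted p = 0.0578). In cells with under 10% mitochondrial counts the PTPN14 value was 0.37 ± 0.16 (adjusted p = 0.132).

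AMOTL2 encodes angiomotin-like 2, a junction protein that binds YAP (chr3:134355347-134375479, minus strand). It stood at 86.1 and 79.5 CPM at D0, 82.4 CPM at D3, 110 CPM at D6 and 53.8 CPM at D9. The D6 library was the highest and D9 the lowest of all 5, so that the treated libraries spanned the untreated ones. The log2 fold change over all treated libraries was -0.01 ± 0.27 (SE; adjusted p = 0.979, edgeR), and it was 0.22 without D9 and 0.05 without untreated replicate 1.

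**Figure D2:**
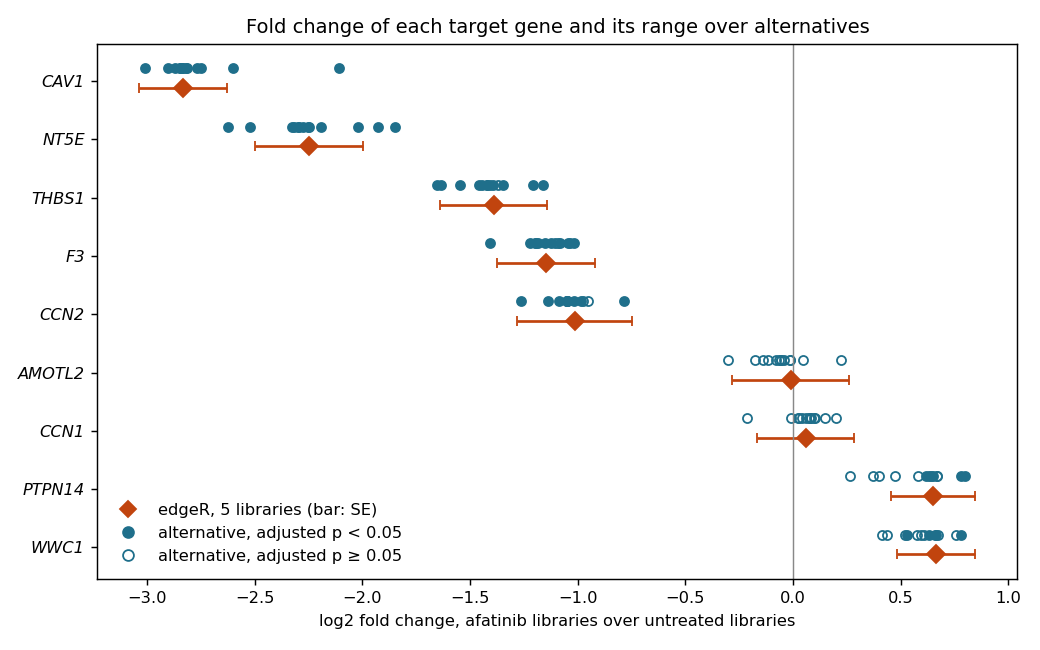
Log2 fold change of each gene (rows), afatinib over untreated libraries (x axis); diamonds with bars are the edgeR estimate on 5 libraries and its SE, and dots are the 13 other ways of processing, filled where the adjusted p was under 0.05. CAV1 and NT5E passed in 13 of 13, CCN1 and AMOTL2 in 0 of 13 and lay on either side of 0.

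The counts of calls leaned on both untreated libraries. Without untreated replicate 1, or without untreated replicate 2, only 2 of the 9 genes passed, NT5E and CAV1, beside 2.73% and 1.96% of all genes. Without D3, 5 passed (16.2% of all genes), without D6, 4 (12% of all genes), and without D9, 7 (56.2% of all genes). With all 5 libraries 7 had passed (23.2% of all genes), so without D9 only the share of all genes rose. The value of exactly 2 UMIs, which unadjusted counts would hold beside 1 and 3, was found in no cell for CCN2, WWC1, PTPN14, THBS1 and AMOTL2 in untreated replicate 1 and all treated libraries, and for NT5E, F3 and CCN1 in untreated replicate 2. CAV1 showed no such gap. Without untreated replicate 2, the library whose gaps differ from the rest, the log2 fold change was -2.85 for CAV1, -2.19 for NT5E, -1.37 for THBS1, -1.20 for F3, -0.98 for CCN2, 0.58 for WWC1, 0.63 for PTPN14, 0.08 for CCN1 and -0.07 for AMOTL2. D3 and D6, the libraries with the high mitochondrial share, were left out as a further alternative chosen after seeing the data: D9 alone against the 2 untreated libraries gave 8 of 9 genes past the test, all but CCN1, beside 55.3% of all genes. The treated side is then 1 library and the spread that of the untreated pair alone. The values include a log2 fold change of -3.03 ± 0.07 for CAV1 and -0.68 ± 0.13 for AMOTL2.

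The targets were then followed by day. With each day as its own level in the model, in which a single treated library is taken to vary as the untreated pair does, a gene was called where the adjusted p was under 0.05 and the log2 fold change at least 1 in size. At D3, 3 of the 9 genes were lower (CAV1, NT5E and THBS1) and 0 higher, beside 4.2% lower and 6.28% higher of all genes. At D6, 4 were lower (F3 as well) and 0 higher, beside 5.77% and 6.73%. At D9, 5 were lower (CCN2 as well) and 0 higher, beside 7.27% and 5.08%. The genes not called at D6 went both ways, with log2 fold changes of 0.90 for WWC1, 0.93 for PTPN14, 0.48 for CCN1, 0.42 for AMOTL2 and -0.98 for CCN2. The median log2 fold change of the 9 genes reached -0.62 at D3, then -0.98 at D6 and -1.38 at D9, whereas that of all genes stayed between 0.01 and 0.06.

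CCN2 was lower at each later day. For CCN2 the log2 fold changes of D3, D6 and D9 against D0 were -0.62 ± 0.08, -0.98 ± 0.09 and -1.61 ± 0.09. NT5E gave -1.80 ± 0.15, -2.28 ± 0.16 and -2.79 ± 0.16 on the same days. CAV1 gave -2.53 ± 0.08, -3.05 ± 0.08 and -2.97 ± 0.08. In cells with under 10% mitochondrial counts CCN2 gave -0.90, -0.98 and -1.59, NT5E -1.03, -1.75 and -2.82, and CAV1 -2.23, -2.68 and -2.97. In D6 against D3, CCN2 (-0.36 ± 0.10, adjusted p = 0.00686) and CAV1 (-0.52 ± 0.09, adjusted p = 4.22e-06) were lower by edgeR, while NT5E (-0.48 ± 0.20, adjusted p = 0.150) did not pass. With only the cells under 10% mitochondrial counts, 85 of 479 at D3 and 188 of 942 at D6, CCN2 in D6 against D3 was at -0.08. The rises of WWC1 and PTPN14 were 0.65 ± 0.12 and 0.62 ± 0.10 at D3, 0.90 ± 0.12 and 0.93 ± 0.10 at D6, and 0.41 ± 0.12 and 0.35 ± 0.10 at D9, none of them of size 1. In cells under 10% mitochondrial counts PTPN14 had 0.15 at D3, 0.64 at D6 and 0.28 at D9, and with the length offset 0.12, 0.45 and 0.20. WWC1 at D3 had 0.52 and 0.35 in these 2 settings. CCN1 and AMOTL2 had their highest fold changes at D6, 0.48 ± 0.13 and 0.42 ± 0.11, and were at -0.13 ± 0.13 and -0.62 ± 0.12 at D9.

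Between treated days few changes reached size 1. In D6 against D3, by edgeR, the only tool run there, the 9 genes had log2 fold changes from -0.72 (F3) to 0.75 (CCN1). None reached size 1, so none was called. In D9 against D6, 1 was called, beside 4.22% of all genes: AMOTL2, at 53.8 CPM at D9, against 110 CPM at D6, with a log2 fold change of -1.04 ± 0.14. THBS1 was close to that size at -0.96 ± 0.17, with 20.002 CPM at D9 and 38.8 CPM at D6. In D9 against D3, 0 were called by edgeR, beside 5.15% of all genes. With no size asked for, 7 had an unadjusted p under 0.05 and 6 an adjusted one. The share of all genes by that looser rule was not counted. CCN2 came nearest at -0.997 ± 0.10 and NT5E at -0.99 ± 0.20, just short of the size asked for. F3 and CAV1 did not pass between D9 and D6, at 0.06 ± 0.21 and 0.08 ± 0.09.

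The cells themselves were then counted. Because median depth per cell lay between 13862 UMIs at D6 and 45658.5 UMIs in untreated replicate 1, every cell was thinned at random to 5000 UMIs, which all 4101 cells had. The share of cells with at least 1 CAV1 UMI was 84.9% (95% exact binomial interval 81.4% to 88.0%) and 81.6% (79.1% to 83.9%) at D0. D3 had 29.0% (25.0% to 33.3%), D6 23.4% (20.7% to 26.2%) and D9 24.5% (22.0% to 27.1%). Intervals cover counting error only. CAV1 UMIs were thus found in most untreated cells and in a minority of treated ones. Without thinning the shares were 98.5% and 96.3% at D0, 65.8% at D3, 48.5% at D6 and 54.5% at D9. All cells belong to 1 line, so no cell type that lacks these genes was at hand to measure the background of free RNA.

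CCN2 was spread unevenly over cells. Its share was 45.6% (41.1% to 50.2%) and 43.1% (40.1% to 46.1%) at D0, while D3 had 38.2% (33.8% to 42.7%), D6 32.3% (29.3% to 35.4%) and D9 21.2% (18.9% to 23.7%). Its variance over thinned cells was 3.67 and 3.50 times its mean at D0, 3.90 times at D3, 2.14 times at D6 and 2.43 times at D9. For WWC1 the same ratio lay between 1.09 and 1.22, near the value of 1 of pure counting. Mean counts were not matched, and WWC1 had fewer UMIs per thinned cell than CCN2 in every library. CAV1, with more UMIs per thinned cell than CCN2 at D0, had ratios of 1.54 and 1.69 there. The 10% of cells with the most CCN2 held 53.8% and 53.2% of its UMIs at D0, 57.4% at D3, 55.7% at D6 and 71.9% at D9, and up to 15 UMIs were found in 1 thinned cell. By this measure WWC1 had 53.6% and 51.9% at D0, so it did not set CCN2 apart there. At D3, D6 and D9 WWC1 had 43.8%, 44.6% and 48.0%. The measure is also high where few cells hold a UMI: THBS1, with a UMI in 9.13% of cells at D9, had 100%.

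NT5E was seen in few cells at this depth. It had a UMI in 11.5% (8.79% to 14.7%) and 13.4% (11.4% to 15.6%) of cells at D0, while D3 had 4.38% (2.73% to 6.62%), D6 1.91% (1.14% to 3.00%) and D9 1.93% (1.21% to 2.91%). THBS1 had 26.4% in both untreated replicates, then 14.8% of cells at D3, 15.2% of cells at D6 and 9.13% of cells at D9. F3 had 5.44% and 5.83% at D0, 5.22% at D3, 2.97% at D6 and 2.28% at D9, and its D3 interval of 3.41% to 7.61% held both untreated shares. WWC1 and PTPN14 were higher by this measure in every treated library, although without thinning their mean differences turned to -0.90 and -1.59 points. WWC1 had 24.7% and 23.0% at D0, 40.3% at D3, 40.2% at D6 and 29.3% at D9. PTPN14 had 33.7% and 31.8% at D0, 51.8% at D3, 52.0% at D6 and 39.8% at D9. CCN1 was highest at D6, with 28.8%, against 16.5% to 19.2% in the other libraries, and AMOTL2 likewise with 39.9%, against 23.1% to 34.9%.

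With 3 treated and 2 untreated libraries the smallest two-sided p of an exact permutation test is 0.2. That value was reached by 7 of the 9 genes (0.257 after adjustment over the 9 tests), whose treated and untreated shares thus did not overlap. How many of all genes separate by share was not counted. By CPM, every treated library lay below both untreated ones in 26% of all genes and above them in 31.7%. Mean differences of the 7 genes were -57.6 points for CAV1, -13.8 for CCN2, -13.4 for THBS1, -9.69 for NT5E, -2.14 for F3, 12.7 for WWC1 and 15.1 for PTPN14. For CCN1 and AMOTL2 the differences were 3.35 and -1.07 points (exact permutation p = 1 for both). The CCN1 value hung on the draw: with another seed it was 4.41 points (exact permutation p = 0.2), and for the share expected over all draws 2.70 points (p = 0.8). A thinned cell held a UMI of 2.86 and 2.71 of the 9 genes on average at D0, 2.30 at D3, 2.37 at D6 and 1.70 at D9. Cells with none of them made up 3.14% and 2.92% at D0, 9.81% at D3, 9.02% at D6 and 18.5% at D9.

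**Figure D3:**
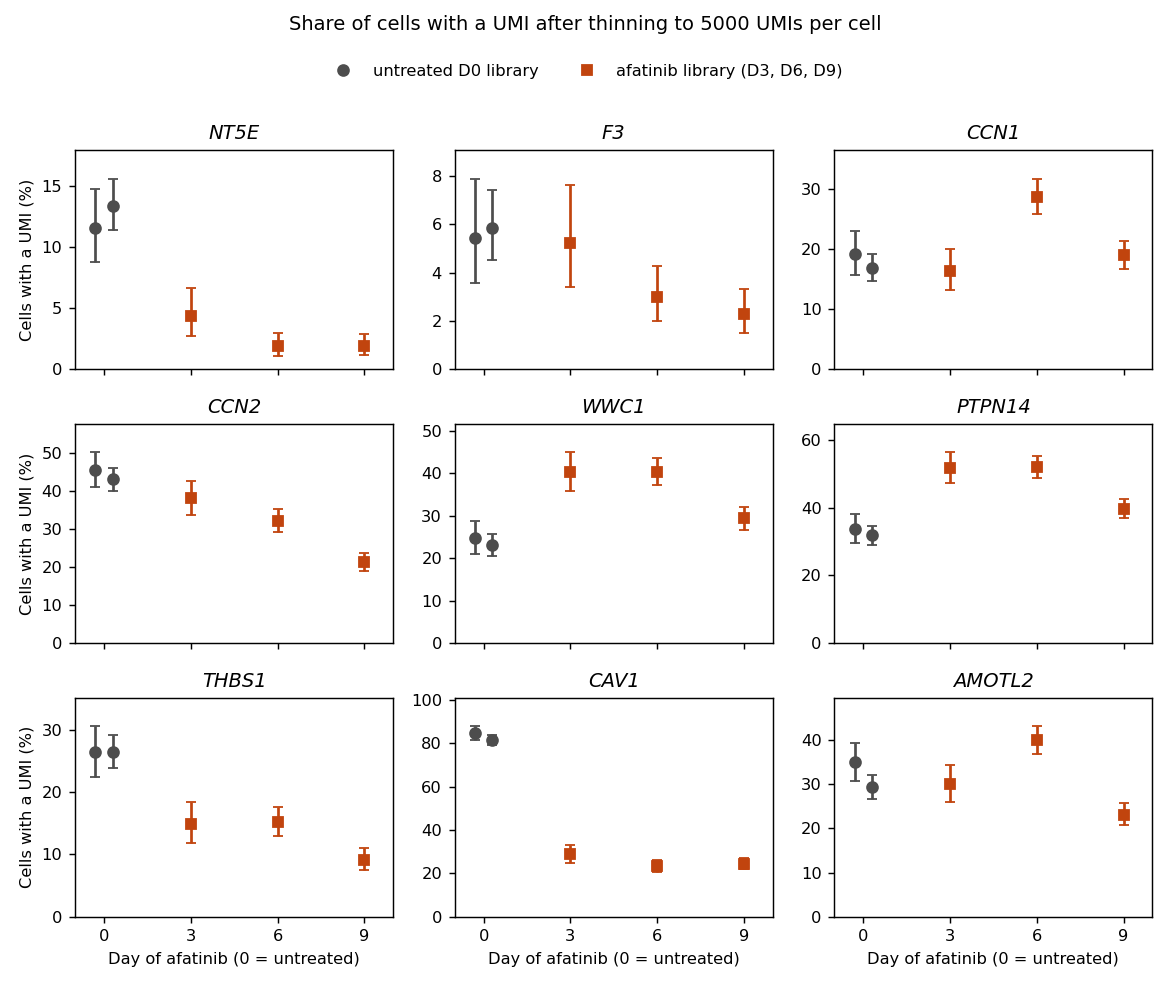
Share of cells with at least 1 UMI of each gene (y axes, percent, each from 0) after every cell was thinned to 5000 UMIs, by day of afatinib (x axes); circles are the 2 untreated libraries, squares the afatinib libraries, and bars are 95% exact binomial intervals. CAV1 fell to 23.4% to 29.0% of treated cells, against 81.6% and 84.9% of untreated ones, and WWC1 and PTPN14 were higher in treated libraries.

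Within a library the 9 genes were only weakly linked from cell to cell. Over the 36 pairs the Pearson correlation of thinned log counts, averaged over the 5 libraries, ran from -0.04 to 0.18, with a median of 0.06. These values describe sparse counts of cells that share a library. The upper end was formed by CCN2 with THBS1 (mean r 0.18, 0.11 to 0.27 by library), CCN2 with CCN1 (0.15, 0.08 to 0.23) and CCN2 with AMOTL2 (0.13, 0.10 to 0.16). WWC1 with NT5E stood at the lower end.

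Other genes of the pathway were counted in the test of treated against untreated libraries, in which 10.1% of all genes fell and 13.1% rose. Here and in the lists that follow, calls come from that test alone. Whether they hold in the alternative settings was not examined. Of 14 further YAP and TEAD targets tested, 4 fell and 0 rose, with a median log2 fold change of -0.43. GADD45A, which acts in growth arrest and DNA repair, was at 121 and 122 CPM at D0, 38.5 CPM at D3, 49.4 CPM at D6 and 45.1 CPM at D9 (log2 fold change -1.46 ± 0.15, adjusted p = 0.00227, edgeR). IGFBP3, a carrier of insulin-like growth factors, fell by 1.43 on the log2 scale, NUAK2, a kinase of the AMPK family, by 1.42, and CCDC80, a matrix protein, by 1.31. ANKRD1, named after its values were seen because it is another common readout of YAP, had -1.46 ± 0.54 and did not pass (adjusted p = 0.0878), with 5.32 and 5.33 CPM at D0, 3.09 CPM at D3, 2.45 CPM at D6 and 0.53 CPM at D9.

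Of 23 tested genes that encode the Hippo pathway and the TEAD factors, 6 rose and 1 fell, with a median of 0.07. Among all genes 13.1% rose and 10.1% fell. WWC3, a paralog of WWC1, rose by 1.01, AMOT, a paralog of AMOTL2, by 0.94, and VGLL4, which competes with YAP for TEAD, by 0.91, and NF2, encoding the upstream activator merlin, fell by 0.80 on the log2 scale. YAP1, named after its values were seen because its product defines the group, was at 51.2 and 43.96 CPM at D0, 78.6 CPM at D3, 83.9 CPM at D6 and 62.9 CPM at D9 (0.66 ± 0.17, adjusted p = 0.0324, edgeR). WWTR1, which encodes TAZ, had 0.52 ± 0.19 (adjusted p = 0.0819), and TEAD1 to TEAD4 lay between -0.38 and 0.04, none past the test.

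The partners of single members were counted in the same test, in which 10.1% of all genes fell and 13.1% rose. These lists are short, and whether their counts differ from those shares was not tested. Caveolar genes fell with CAV1 in 2 of 3 tested: CAV2, which forms hetero-oligomers with caveolin-1, was at 183 and 183 CPM at D0, 55.1 CPM at D3, 48.9 CPM at D6 and 59.2 CPM at D9 (-1.75 ± 0.15, adjusted p = 0.0017, edgeR), and CAVIN1, a coat component, fell by 1.20. PACSIN2 had 0.05. In the CCN and thrombospondin families 2 further genes were tested, of which THBS3 rose by 0.97 at 2.04 to 4.77 CPM. Of 7 genes of extracellular adenosine, in which NT5E works, 1 fell, the adenosine receptor ADORA2B (-1.01), and 0 rose. Of 8 genes of the tissue factor and plasminogen system 3 fell and 0 rose: the urokinase receptor PLAUR (-1.50), the inhibitor TFPI2 (-1.10) and urokinase PLAU (-0.59). Of 12 genes of TGF-beta and SMAD, which share CCN2 and THBS1 with YAP, TGFB1 fell by 0.75 and LTBP1 rose by 0.60. Of 12 immediate early genes, a class that cell dissociation also induces, 4 rose (DUSP1 by 1.98, FOSB by 1.61, FOS by 1.22 and JUN by 0.86) and EGR1 fell by 0.88. Their part in the values of CCN1 was not tested.

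**Figure D4:**
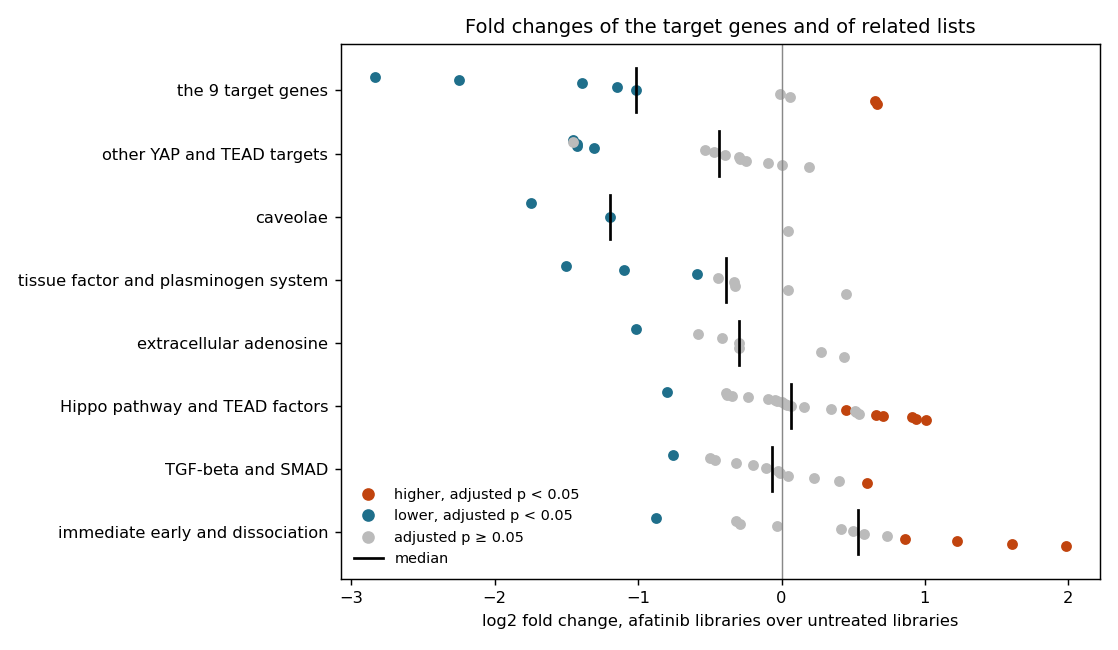
Log2 fold change of single genes, afatinib over untreated libraries (x axis), in the 9 genes and 7 related lists (rows); red dots are higher and blue dots lower at an adjusted p under 0.05, grey dots did not pass, and black bars are medians. The 9 genes have a median of -1.01, further YAP and TEAD targets -0.43 and the Hippo pathway genes 0.07.

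Finally, the 6401 genes with a mean level of at least 20 CPM were searched for those whose course over the 5 libraries was nearest to that of 4 members, by Euclidean distance of log2(CPM + 1) relative to the untreated mean. Nearest to NT5E were SLITRK6 (distance 0.29), LINC01186 (0.38) and GPRC5A (0.45). SLITRK6 was at 48.7 and 55.5 CPM at D0, 15.7 CPM at D3, 9.87 CPM at D6 and 9.43 CPM at D9. Nearest to F3 were ITGB4 (0.20), the integrin beta 4 chain of hemidesmosomes, FOXI1 (0.21) and IGFBP4 (0.23). Nearest to CCN1 were TES (0.17), SDF2L1 (0.19) and PTBP1 (0.24), all with D6 on top. Nearest to CCN2 were NMT1 (0.17), ZSCAN16-AS1 (0.17) and AHNAK2 (0.25), which fell from library to library as CCN2 did.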

How the data were processed

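Reads were processed by the authors with Cell Ranger 6.1.2 on GRCh38 (GENCODE annotation), cells with few UMIs, outlying mitochondrial shares and putative doublets were dropped, and the counts were adjusted with ComBat-seq because day 0 came from 2 captures; traces of the adjustment were found in the treated libraries as well. The deposited matrix therefore holds expected counts, UMI counts per gene and cell after batch adjustment. All values were whole, so rounding changed none. The other deposited columns hold cell names, gene identifiers and symbols. No further doublet step was run.

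Counts were summed per library and tested with edgeR 4.0.16 (TMM, filterByExpr, quasi-likelihood F-test, R 4.3.3) on all 12145 genes, with the 3 treated days as replicates of treatment and 3 residual degrees of freedom. Days were compared in a fit with day as a factor and 1 residual degree of freedom. Adjustment was by Benjamini-Hochberg. Shares and cell correlations used cells thinned to 5000 UMIs. Gene positions were taken from GENCODE v44 (GRCh38), promoter windows from RefSeq (GRCh38.p14). The script was tested on simulated counts. Such an adjustment pulls the untreated libraries towards each other and can make p-values too small; unadjusted counts were not used here.

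The members, lists and tests were chosen with earlier results of these data known. All 9 members were named, and of each list at most 4 called genes with the largest change.

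Alternatives were DESeq2 1.42.0, limma-voom (limma 3.58.1), no filter on low counts, each library left out, thinned cells, mitochondrial and ribosomal protein genes left out, cells under 10% mitochondrial counts, day as a linear term and an offset for transcript length.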

Additional observations from a re-analysis of the deposited data

Results flagged for a closer look

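AMOTL2 was the only one of the 9 genes whose level differed between treated days by the test of the difference itself with a size of at least 1. It was at 53.8 CPM at D9, against 110 CPM at D6, a log2 fold change of -1.04 ± 0.14 (SE, edgeR). Each day had 1 library, so the error comes from the untreated pair. With thinned cells it was -0.92 and with the length offset -0.86, both short of that size.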

How the results depend on the processing

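NT5E and CAV1 kept their call and direction in all 13 planned settings of treated against untreated, and F3, CCN2, THBS1, WWC1 and PTPN14 kept their direction. The number of genes called, 2819, was 1363 with thinned cells, 601 with day as a linear term and 6728 without D3 and D6 (chosen after seeing the data), and 239 to 6817 when each library was left out. Members called, 7, were 4 with thinned cells and 2 to 7 when each library was left out. CCN1, at 0.06, was -0.0084 with mitochondrial and ribosomal protein genes left out and -0.19 without D3 and D6. With each library left out, CCN1 ranged from -0.22 to 0.20 and AMOTL2, at -0.01, from -0.30 to 0.22, above 0 without untreated replicate 1 or D9. For the comparisons between treated days, the share of all genes called was not counted in each alternative. The counts of members that follow therefore have no such share beside them. In D6 against D3, 1 member passed in cells under 10% mitochondrial counts. In D9 against D6, 0 passed with thinned cells or the length offset and 2 in cells under 10% mitochondrial counts; F3, at 0.06, was -0.49 with thinned cells and -0.066 with the length offset, and CAV1, at 0.08, was -0.29 in cells under 10% mitochondrial counts and -0.0075 with the length offset. In D9 against D3, 3 passed with thinned cells and 1 each in cells under 10% mitochondrial counts and with the length offset; CCN1 was -0.023 and PTPN14 0.14 in cells under 10% mitochondrial counts, and WWC1 was 0.0057 and PTPN14 0.083 with the length offset. Without thinning, the share difference was -8.31 points for CCN1, -0.90 for WWC1 and -1.59 for PTPN14, and 27 of 36 pairs had a mean r over 0.1, against 6 with thinning. AMOTL2, at -1.07 points, was 1.33 with another seed and 0.53 for the share expected over all draws (chosen after seeing the data). The cause of these differences was not tested. No paired analysis was possible because the treated libraries carry no replicate number shared with both untreated ones.

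Each treated day had 1 library. F3 and NT5E rest on few UMIs in treated libraries, 99 to 167, so their shares of cells are imprecise.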

Other observations

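CAV1, CAV2 and MET lie beside each other on chromosome 7, which was noticed after their values were seen. Within 1 Mb of CAV1, 7 other genes were tested, of which 2 fell, 2 rose and 3 did not pass, beside 10.1% that fell and 13.1% that rose of all genes. In the order of the chromosome, TES had a log2 fold change of -0.02 ± 0.20, CAV2 -1.75 ± 0.15, CAV1 -2.83 ± 0.20, MET -1.24 ± 0.25 and CAPZA2 -0.43 ± 0.23 (SE). MET, the receptor of hepatocyte growth factor, was at 75.7 and 79.7 CPM at D0, 42.8 CPM at D3, 33.6 CPM at D6 and 22.3 CPM at D9 (adjusted p = 0.0132, edgeR), and starts 147 kb from the start of CAV1. The noncoding genes ST7-AS1 and ST7-OT4, at 1.53 to 5.71 CPM, rose by 1.45 and 0.99, whereas ST7, which they overlap, had 0.09 ± 0.16.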
